A study of Mus musculus with 12 samples.

Results

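The colony-stimulating factors and interleukin-34 are secreted ligands that govern the survival, growth and maturation of macrophages, granulocytes and osteoclasts. The 4 genes followed here were Csf1 (ENSMUSG00000014599), Csf2 (ENSMUSG00000018916), Csf3 (ENSMUSG00000038067) and Il34 (ENSMUSG00000031750), taken by symbol from the 57010 Ensembl gene IDs counted in cultures labelled as primary chondrocytes of the mouse. Chondrocytes make the matrix of cartilage. Of the 4 genes, Csf1 and Il34 had enough counts to enter the test across all genes. Csf3 and Csf2 did not and are described by their counts.

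Csf1 encodes macrophage colony-stimulating factor and Il34 encodes interleukin-34. Both bind the receptor tyrosine kinase CSF1R, which macrophages and osteoclast precursors carry, and Il34 has further reported partners in the phosphatase PTPRZ1 and the proteoglycan syndecan-1. Csf2 encodes GM-CSF, which signals through CSF2RA paired with the common beta chain, and Csf3 encodes G-CSF, the main growth factor of neutrophils, which signals through CSF3R. In mesenchymal cells Csf2 and Csf3 are known as short-lived messages induced by inflammatory stimuli through NF-kB, AP-1 and C/EBP factors, while Csf1 is made constitutively.

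All 12 libraries came from cells of genotype Wild type. The labels divide them by treatment into Control, WT and SIRT5F101L mutant, with 4 libraries each, the last pair of groups being cells that received plasmids. SIRT5 is a mitochondrial lysine deacylase. What the Control cells received, whether the WT plasmid carries SIRT5, and the age, strain and number of the animals are not given in the sources used here, nor is whether libraries come from separate cultures, so p-values measure the spread between these libraries, which may be technical. Both plasmid groups are set against the same Control libraries.

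Libraries held 15095357 to 24242139 counts. Sirt5, named in the treatment, had 9 to 16 counts in Control, 1 to 9 in WT and 9 to 19 in SIRT5F101L libraries, so no rise of Sirt5 with either plasmid was seen at this depth. These are counts of the mouse gene ID. Whether reads from a plasmid insert would be counted there is not known from the sources used here. SIRT5F101L replicate 1 stood apart from its group: on the second principal component it lay at 20.3, beside WT replicates 2 to 4 at 12.5 to 20.1, whereas the other SIRT5F101L libraries lay at -23.5 to -17.0. WT replicate 1, at -1.07, lay away from its group too. Values without SIRT5F101L replicate 1 are given where it changes a call or moves a value by much. Chondrocyte markers were present in every library. Their summed level, as CPM (counts relative to library size, scaled by TMM), was 9318 to 11675 in Control, 2846 to 2960 in WT and 2316 to 2559 in SIRT5F101L libraries. Macrophage markers were also present, at 221 to 261, 145 to 163 and 153 to 194 CPM. These sums include Cd14, which averaged 12.4 CPM in Control, 51.2 in WT and 59.7 in SIRT5F101L. Most of the other macrophage markers tested fell, so the sums understate that fall. In bulk RNA, fewer cells of a type and less RNA per cell cannot be told apart.

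The sequences below show a feature in which the 4 messages differ, the AU-rich pentamer ATTTA (in RNA, AUUUA) in the 3′ untranslated region, a motif of messages that mRNA decay proteins bind. Each is the 30-base stretch holding the most copies, from the longest coding transcript in GENCODE M21, with the pentamers in capitals.
Csf2: taaatATTTATTTATTTATTTATTTAtttt
Csf3: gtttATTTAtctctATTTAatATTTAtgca
Csf1: taaggtcATTTAaatatctATTTAaaaaat
Il34: cctttttctattaaatggccATTTAtttgg

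Csf2 held 5 overlapping pentamers in 30 bases and 9 in its 317-base 3′ untranslated region. Among 1711 genes whose 3′ untranslated region was within 20% of that length, 0.117% had a stretch with as many. Csf3 held 3 in 30 bases and 6 in 669 bases, and 1.19% of 2267 genes of like length had as many in one stretch. Csf1 held 2 in 30 bases and 4 in 2111 bases, which 27.7% of genes of like length matched. Il34 held 1, as 57.0% of genes of like length did at the least. Matches of 5 letters are a description of the sequence and do not show that a protein binds there.

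The promoter of Csf1, the most abundant of the 4, is shown because its level hardly differed between groups while several of the factors that bind such promoters did. RefSeq places it on GRCm38.p6 at chr3:107760420-107760719, minus strand, and the window runs from 250 bases before to 50 after the gene's start. The capitals mark the 1 match to the NF-kB consensus, searched on both strands.
Csf1 promoter: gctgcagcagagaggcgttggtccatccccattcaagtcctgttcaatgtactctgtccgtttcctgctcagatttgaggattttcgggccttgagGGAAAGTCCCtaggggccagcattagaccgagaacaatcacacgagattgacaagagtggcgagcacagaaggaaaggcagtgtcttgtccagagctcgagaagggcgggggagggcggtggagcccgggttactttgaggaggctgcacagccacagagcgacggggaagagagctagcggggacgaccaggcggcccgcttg

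Of 27025 RefSeq promoters of that length, 8.18% held such a match. The AP-1 motif TGANTCA, which 7.93% of promoters held, the C/EBP motif TTGCNNAA (10.8%) and AGATTCC, the core of the CK-1 cytokine element (3.64%), were not in this window. The ETS core GGAA occurred 4 times, 1 of them inside the NF-kB match, and 46.3% of promoters held as many. No match says only that these letters are not in this window. Promoters of the other ligands are not shown.

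Csf1 was expressed at a high and nearly even level in all 3 groups. Its level was 1129, 966, 1097 and 1196 CPM in Control replicates 1 to 4, 1244, 1252, 1308 and 1092 in WT, and 1154, 1132, 1098 and 1153 in SIRT5F101L. The 3 ranges overlap, and WT replicate 4 lay below the highest Control library. Per kilobase of its longest transcript (4176 bases), Csf1 averaged 263 ± 23.1 CPM (SD, n = 4) in Control, 293 ± 22.2 in WT and 272 ± 6.29 in SIRT5F101L. Only 1.63% of the 14080 tested genes with a length stood higher in Control, and 1.32% in each plasmid group.

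Il34 was much lower than Csf1, and both plasmid groups had about 2 times less of it than Control. Control replicates 1 to 4 had 14.6, 15.9, 18.0 and 16.2 CPM of Il34. WT replicates had 7.30, 7.88, 6.06 and 6.32, and SIRT5F101L replicates 7.32, 8.11, 8.13 and 8.95. Every plasmid library lay below every Control library, and the plasmid groups overlapped with each other. Per kilobase (1796 bases) Il34 averaged 9.02 ± 0.784 CPM in Control, 3.84 ± 0.473 in WT and 4.53 ± 0.371 in SIRT5F101L (SD, n = 4). Of tested genes, 40.6% stood higher in Control, 59.7% in WT and 56.8% in SIRT5F101L.

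Csf3 was near the limit of detection. Its counts were 0, 2, 0 and 0 in the Control libraries, 2, 6, 6 and 13 in WT, and 7, 11, 14 and 3 in SIRT5F101L. Counts were higher in the plasmid libraries, though WT replicate 1 had no more than Control replicate 2. Per kilobase of its 1413-base transcript Csf3 averaged 0.265 CPM in WT and 0.322 in SIRT5F101L, so in every group the order was Csf1, then Il34, then Csf3, without overlap between the genes.

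Csf2 had 1 count in Control replicate 3 and 0 in the other 11 libraries. A count of 0 in a library allows up to 3 counts, which is 0.124 to 0.199 CPM before scaling, for counting error only. Of Csf2 exon sequence 12% overlaps the annotated gene Gm12223, so reads there are uncertain.

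**Figure D1:**
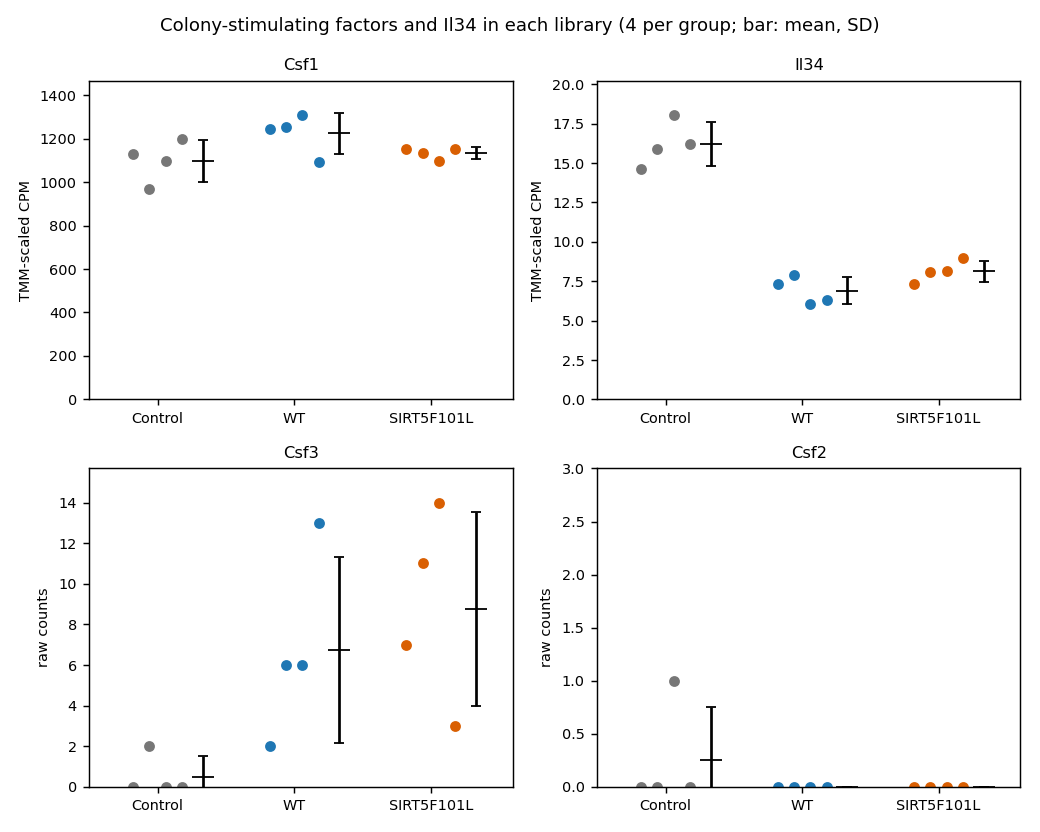
Levels of the 4 ligand genes in each library, as TMM-scaled CPM for Csf1 and Il34 and as raw counts for Csf3 and Csf2; points are libraries, and bars are the mean and SD of 4. Il34 in plasmid libraries (6.06 to 8.95 CPM) sits below every Control library (14.6 to 18.0), while the ranges of Csf1 overlap.

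Against Control, the WT plasmid group was tested by edgeR's quasi-likelihood test over 14253 genes, with Benjamini-Hochberg adjusted p under 0.05 as the call. Of the 2 tested ligands 1 was called, Il34, in a comparison where 56.8% of all genes were called (28.7% higher and 28.1% lower). Il34 fell by 1.24 on the log2 scale (SE 0.11, 95% interval -1.47 to -0.997, edgeR adjusted p 1.22e-08), which is 2.35-fold. The groups did not overlap for Il34, as for 53.5% of genes tested. Csf1 was 0.16 higher on the log2 scale (SE 0.07, interval 0.01 to 0.30), with an unadjusted p of 0.0339 and an edgeR adjusted p of 0.0585, so it did not pass. Over 20 alternative settings its adjusted p ran from 0.0151 to 0.205, and 7 of the 20 called it, among them DESeq2 (adjusted p 0.0428).

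For SIRT5F101L against Control the fit called 60.7% of genes (30% higher and 30.7% lower), and 51.3% showed no overlap. Again 1 of the 2 tested ligands was called. Il34 fell by 0.995 on the log2 scale (SE 0.11, interval -1.23 to -0.76, edgeR adjusted p 2.00e-07), or 1.99-fold. Without SIRT5F101L replicate 1 the difference was -0.95. Csf1 differed by 0.05 (SE 0.07, interval -0.10 to 0.19, edgeR adjusted p 0.568). That sign is not settled: it turned to -0.01 without Control replicate 2 and to -0.03 with a correction for transcript length.

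Between the plasmids 0.0421% of genes were called (0.0281% higher and 0.0140% lower in SIRT5F101L), which is 6 genes, while 1701 had an unadjusted p under 0.05. Neither tested ligand was called. The count of 6 depended on the libraries: it was 2212 without SIRT5F101L replicate 1, and 0 to 3 when any 1 of Control replicates 1 to 4, WT replicates 1 to 4 or SIRT5F101L replicates 2 to 4 was left out. Il34 was 0.24 higher in SIRT5F101L than in WT on the log2 scale (SE 0.12, interval -0.01 to 0.49, edgeR adjusted p 0.428). Csf1 was lower by 0.11 (log2 fold change -0.11, SE 0.07, interval -0.25 to 0.03, edgeR adjusted p 0.517). These intervals leave room for a difference of up to 0.49 in Il34, so the mutant and the WT plasmid are not shown to act alike on it. Without SIRT5F101L replicate 1 the value for Il34 was 0.29 (edgeR adjusted p 0.133), and that for Csf1 was -0.12 (0.265).

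**Figure D2:**
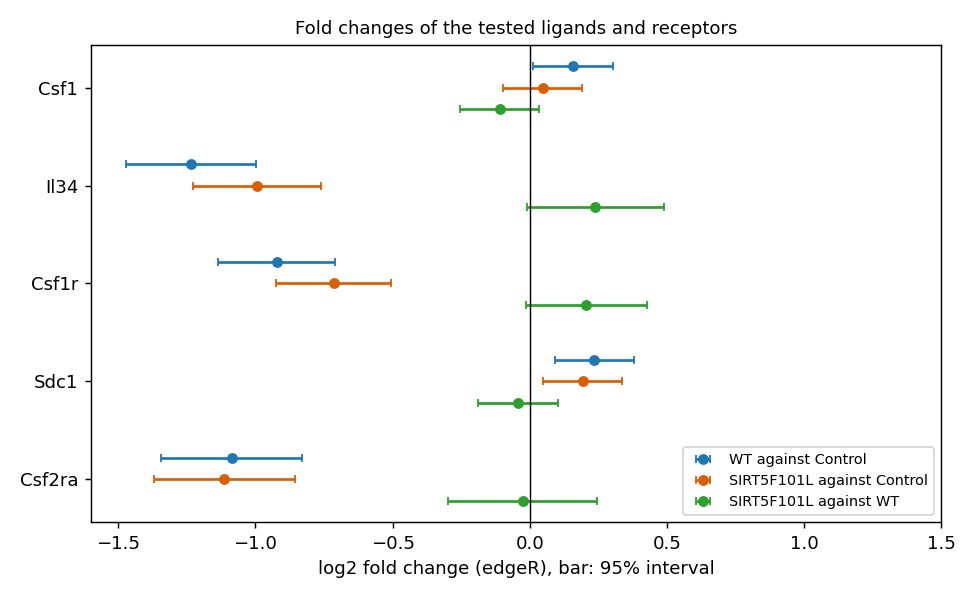
Log2 fold changes of the tested ligand and receptor genes, Csf2rb left out, in the 3 comparisons (horizontal axis) with 95% intervals from the edgeR fit. Il34, Csf1r and Csf2ra lie below 0 against Control (Il34 at -1.24 and -0.995), and every interval between the plasmid groups spans 0.

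The counts of Csf3 were too few for the test's expression filter. Summed over libraries there were 2 counts in Control, 27 in WT and 35 in SIRT5F101L. Relative to total counts the ratio to Control was 14.5 for WT (95% exact interval 3.65 to 126) and 17.9 for SIRT5F101L (4.598 to 154), and these intervals cover counting error only. Both Control counts came from Control replicate 2, so that without it Control has 0 counts and the ratio has no upper limit. An exact 2-sided permutation test of CPM over the 70 arrangements of 8 libraries, added after the data were seen, gave p = 0.0571 for WT and p = 0.0286 for SIRT5F101L, the smallest p that design allows. Adjusted over 3 comparisons both were 0.0857. When the filter was dropped, edgeR called Csf3 in both comparisons (adjusted p 0.00129 and 3.01e-04), in fits that called 32.5% and 34.6% of 25722 genes, and did not call it between the plasmids (adjusted p 0.946), where 1.38% were called. Between the plasmid groups the ratio was 1.23 (0.724 to 2.11), with an exact permutation p of 0.629. With 1 count in all, Csf2 gives no fold.

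The balance of the 2 ligands of CSF1R shifted towards Csf1, through the fall of Il34. Per kilobase, Csf1 exceeded Il34 by 33.2, 26.1, 26.1 and 31.7 times in Control replicates 1 to 4. The ratio was 73.3, 68.3, 92.8 and 74.3 in WT and 67.8, 60.0, 58.0 and 55.4 in SIRT5F101L. Its mean was 29.3 ± 3.70 (SD, n = 4) in Control, 77.2 ± 10.7 in WT and 60.3 ± 5.35 in SIRT5F101L. Every plasmid library lay above every Control library. All SIRT5F101L libraries lay below all WT libraries, the highest at 67.8 against the lowest at 68.3. Of single genes tested, 53.5% (WT) and 51.3% (SIRT5F101L) did not overlap with Control, and 4.02% did not overlap between the plasmids. Between the plasmids Csf1 and Il34 each overlapped, and neither was called. The ratio is a description built from 2 members and carries no test.

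**Figure D3:**
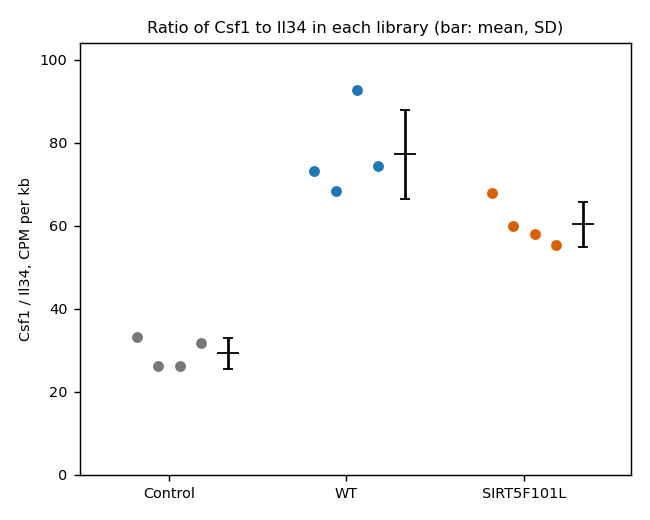
Ratio of Csf1 to Il34 in each library, both as CPM per kilobase of the longest transcript; points are libraries, and bars are the mean and SD of 4. Control libraries lie at 26.1 to 33.2, WT at 68.3 to 92.8 and SIRT5F101L at 55.4 to 67.8.

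Receptors for these ligands were measured in the same RNA. Of 7 receptor genes 4 were tested, and in each comparison with Control 2 were called higher and 2 lower, where 56.8% (WT) and 60.7% (SIRT5F101L) of all genes were called, about evenly in each direction. Csf2rb, among those called higher, passed the filter on low counts only through the plasmid groups. With so many genes called, counts of this size in the lists below say little by themselves. The median log2 fold change over all genes tested was -0.01 in WT and -0.02 in SIRT5F101L. Between the plasmids 0 of the 4 were called.

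Csf1r, the receptor of Csf1 and Il34, fell in both plasmid groups. It averaged 16.2 ± 1.40 CPM in Control, 8.52 ± 0.284 in WT and 9.88 ± 0.886 in SIRT5F101L (SD, n = 4). Control (15.1 to 18.2) and the plasmid libraries (8.14 to 10.8) did not overlap, as for 53.5% (WT) and 51.3% (SIRT5F101L) of genes tested. In WT the change was -0.92 on the log2 scale, with an edgeR adjusted p of 1.89e-07, and in SIRT5F101L it was -0.72, with 4.32e-06 (SE 0.10 for each). Csf1r is also one of the 15 macrophage markers followed, of which 13 were tested. Of those, 12 were called lower and 1 higher in WT, and 11 lower and 1 higher in SIRT5F101L, where 28.1% and 30.7% of all genes were called lower. The counts of lower genes include Ptprc and Cx3cr1, which passed the filter only through Control. The complement gene C1qa fell (-2.36 in WT and -2.52 in SIRT5F101L). C1qb (-2.09 and -2.15) and Tyrobp, an adaptor of myeloid receptors (-2.08 and -2.38), fell in both as well. The chemokine receptor gene Cx3cr1 had 44 to 90 counts in Control and 6 to 17 in plasmid libraries. Cd14, a co-receptor for lipopolysaccharide, rose by 2.05 and 2.27. Itgam was listed at 0 in all 12 libraries. The part of macrophage RNA in the change of Csf1r was not tested. Of Csf1r exon sequence, 15.1% overlaps Hmgxb3.

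Sdc1, which encodes syndecan-1, was the most abundant receptor gene. It averaged 195 ± 9.90 CPM in Control, 230 ± 16.8 in WT and 223 ± 19.9 in SIRT5F101L (SD, n = 4). In both comparisons with Control the groups did not overlap, as for 53.5% (WT) and 51.3% (SIRT5F101L) of genes tested. It rose by 0.24 in WT, with an edgeR adjusted p of 0.00675, and by 0.19 in SIRT5F101L, with 0.0217 (SE 0.07 for each). The second call was lost without SIRT5F101L replicate 1 (0.13, edgeR adjusted p 0.0598), without Control replicate 2 (0.17, 0.0663) or 4 (0.17, 0.0663) and with upper-quartile scaling (0.15, 0.0644). Ptprz1 had 0 to 5 counts in any library.

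Csf2ra, the ligand-binding chain, fell from 13.6 ± 0.812 CPM in Control to 6.35 ± 0.788 in WT and 6.31 ± 0.820 in SIRT5F101L (SD, n = 4), with log2 fold changes of -1.09 and -1.11 (SE 0.12 for each) and edgeR adjusted p-values of 2.34e-07 and 1.56e-07. Csf2rb, the common beta chain shared with the receptors of IL-3 and IL-5, averaged 0.811 ± 0.262, 3.07 ± 0.248 and 2.66 ± 0.433 CPM in Control, WT and SIRT5F101L. In Csf2rb the counts were 18, 18, 16 and 8 in Control, 63, 45, 59 and 56 in WT and 49, 36, 60 and 58 in SIRT5F101L. Only 3 of its 4 Control libraries reached the minimum of 0.531 CPM that the filter asks for, and its fold and test are not given. Of its longest transcript 63.3% has a copy of at least 95% identity in Csf2rb2, so the division of reads between the pair is uncertain. Csf2rb2 itself had 1 to 19 counts. Csf3r, the G-CSF receptor, had 0 to 5 counts in any library.

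**Figure D4:**
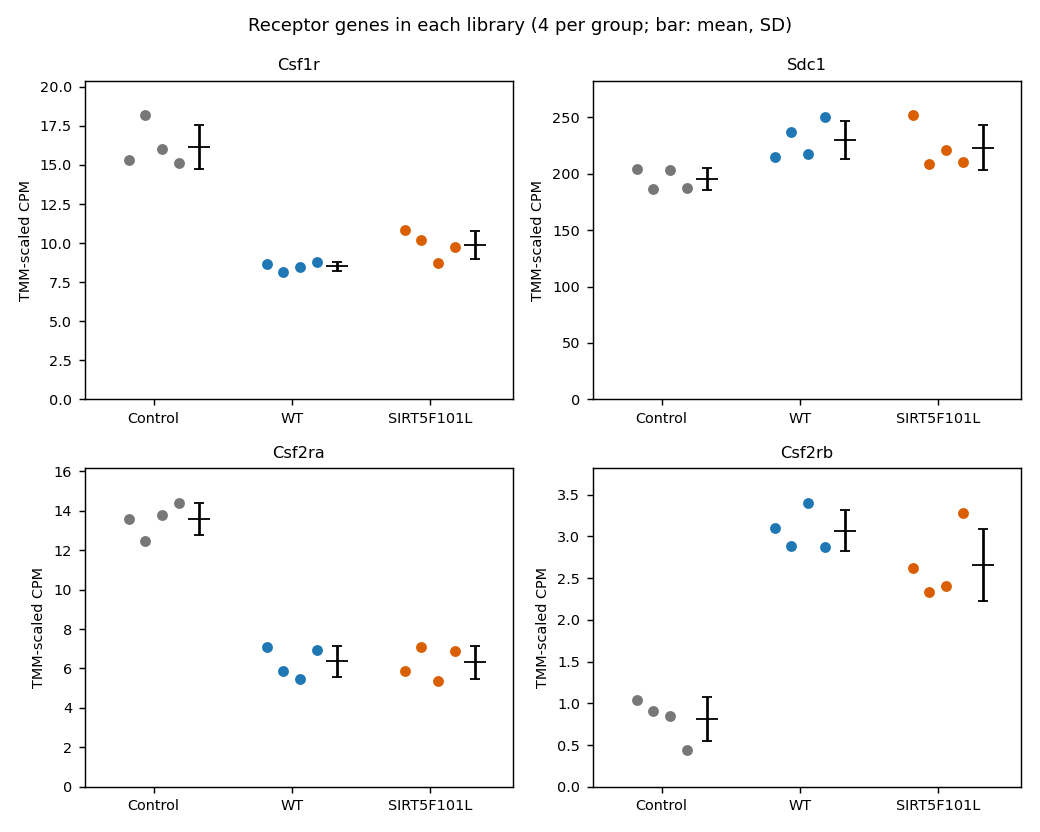
TMM-scaled CPM of the 4 tested receptor genes in each library; points are libraries, and bars are the mean and SD of 4. Csf1r and Csf2ra are lower in all plasmid libraries than in Control, and Csf2rb and Sdc1 are higher.

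Csf1 and Il34 differ in how they leave the cell. Csf1 is made partly as a membrane protein that ADAM17 can shed. Adam17 averaged 88.6 ± 4.80 CPM in Control, 91.7 ± 2.72 in WT and 99.7 ± 2.30 in SIRT5F101L (SD, n = 4). It rose in SIRT5F101L by 0.17 (SE 0.06, edgeR adjusted p 0.0143) and was 0.05 higher in WT (edgeR adjusted p 0.483). Between the plasmids the difference was 0.12 (edgeR adjusted p 0.414), with no overlap of the groups, as for 4.02% of genes. The related sheddase Adam10 rose by 0.38 and 0.35 in WT and SIRT5F101L.

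Genes of the inflammatory signals upstream of the CSF genes were followed as ligands, receptors and adaptors. Of 15 genes 11 were tested, and 7 were called higher and 1 lower in each comparison with Control (28.7% and 30% of all genes were called higher), with a list median of 0.39 in WT and 0.66 in SIRT5F101L. Tlr4 and Tlr2, receptors of bacterial products, rose by 1.10 and 1.05 in WT and by 1.19 and 1.17 in SIRT5F101L. Il1r1, the signalling chain of the IL-1 receptor, fell (-0.65 and -0.43). Il1rap, its accessory chain, had 7 to 13 counts in Control and 17 to 54 in plasmid libraries, and passed the filter only through the plasmid groups. The count of higher genes and the list medians include Il1rap. The ligands of these receptors in the list were scarce: Tnf had 6 to 19 counts in Control and 0 to 5 in plasmid libraries, Il1b had 0 to 7 in any library, and Il1a had 0 to 3. Tnf, Il1a and Il1b were not tested and are named here after their values were seen. Myd88, an adaptor that most cells use, was listed at 0 in all 12 libraries, so a listed 0 need not mean that a gene was silent.

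Among 14 transcription factors known to act on CSF promoters, all tested, 9 were called higher and 3 lower in each comparison with Control (of all genes, 28.7% and 30% were called higher), with medians of 0.53 and 0.51. Fosl1, an AP-1 subunit, rose most, by 1.89 in WT and 1.81 in SIRT5F101L. Ets1 rose by 1.53 and 1.61 and Cebpd by 1.34 and 1.23. Fos, another AP-1 subunit, fell (-0.75 in both), as did Ets2 (-0.64 and -0.59) and the NF-kB subunit gene Rel (-0.71 and -0.34). The other NF-kB subunit genes were called higher, Nfkb1 by 0.94 and 1.06 and Nfkb2 by 0.63 and 0.59. Relb rose by 0.44 and 0.46, and Rela by 0.31 and 0.26. These genes are named after their values were seen.

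Regulators of AU-rich and other short-lived messages went both ways. Of 13, all tested, 7 were called higher and 2 lower in WT, and 6 higher and 3 lower in SIRT5F101L, with medians of 0.19 and 0.14. Over all genes 56.8% and 60.7% were called. Zc3h12a, which encodes the cytokine mRNA-cleaving enzyme regnase-1, rose by 1.30 and 1.41. Mapk14, the p38 kinase that stabilises AU-rich messages, rose by 0.65 and 0.68, and Rc3h1, a decay factor (roquin-1), by 0.44 and 0.66. Zfp36l2 (-0.49 and -0.51) and Zfp36, which encodes tristetraprolin (-0.21 and -0.29), fell, and both are decay factors for AU-rich messages. Zfp36l1, of the same family, rose by 0.38 and 0.55, and is named after its values were seen. Tial1, a translational repressor, fell in SIRT5F101L (-0.19).

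Signalling genes downstream of the CSF receptors were divided. Of 16, 15 were tested. In WT 6 were called higher and 4 lower, and in SIRT5F101L 6 higher and 5 lower, with medians of 0.03 and -0.02. These shares lie near the 56.8% and 60.7% of all genes called. Socs3, a feedback inhibitor of cytokine receptors that also limits G-CSF signalling, rose by 1.21 and 1.15. Sos1, a Ras activator, rose by 0.65 and 0.90, Stat3 by 0.43 and 0.42, and Cbl, which targets CSF1R for degradation, by 0.43 and 0.58. Pik3r1, a PI3-kinase subunit, fell (-0.91 and -0.72). Inpp5d, a lipid phosphatase characteristic of blood cells, fell (-1.43 and -1.33) beside the macrophage markers above, whose part in this was not tested.

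Other cytokines that act on blood-forming cells included genes with changes of many fold. Of 12, 8 were tested, and 6 were called higher and 1 lower in each comparison with Control, with medians of 1.71 and 1.86. The count of higher genes and the medians include Tnfsf11, whose passing of the filter is described below. Over all genes 28.7% and 30% were called higher. Il6 rose by 5.50 in WT and 5.82 in SIRT5F101L, and Lif by 3.95 and 4.23. Tnfsf11, which encodes RANKL, the driver of osteoclast formation together with CSF1, had 4 to 18 counts in Control and 222 to 451 in plasmid libraries, and passed the filter only through the plasmid groups. Cxcl12, a retention factor for blood stem cells, fell (-3.76 and -3.71). Il3, Il5 and Flt3l were listed at 0 in all libraries, Il3 being the gene beside Csf2.

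Markers of the cells that CSFs act on were low or mixed. Neutrophil markers summed to 0.355 to 1.01 CPM in Control, 3.01 to 3.70 in WT and 2.597 to 4.49 in SIRT5F101L. Of the 9, Ly6g and Camp were tested, and they passed the filter on low counts only through the plasmid libraries, which bears on their direction. Ly6g had 0 to 2 counts in Control and 6 to 17 in plasmid libraries, and Camp had 1 to 8 and 21 to 58. Of 8 osteoclast markers 4 were tested. Itgb3 rose by 4.17 and 4.20, Nfatc1 by 1.55 and 1.60, while Ctsk, the collagen-degrading protease cathepsin K, fell (-0.50 and -0.66). The defining Acp5 was listed at 0, Calcr had 0 to 6 counts and Dcstamp 0 to 3. Endothelial markers summed to 5.40 to 9.55 CPM in all libraries, and 1 of 4 tested genes, Vwf, was called in each comparison with Control (0.54 and 0.65), below the 56.8% and 60.7% of all genes called. Of the 6 lymphocyte markers none was tested, and those listed at 0 included Cd3e, Cd3g, Cd2 and Ms4a1. Of 14 chondrocyte markers 12 were called lower in each comparison with Control, with 2 higher in WT and 1 in SIRT5F101L, where 28.1% and 30.7% of all genes were called lower. The 12 include Snorc, which passed the filter only through Control. The cartilage matrix genes Cnmd (-5.43 and -5.42), Matn3 (-3.53 and -4.07) and Ucma (-3.43 and -3.93) fell, while Hapln1 rose by 0.25 and 0.18, and Acan rose by 0.47 in WT. The part of these markers in the fall of Il34 was not tested. In all lists together, 1 of 103 tested genes was called between the plasmids, against 0.0421% of all genes, the cartilage collagen Col11a2 (log2 fold change -0.63, edgeR adjusted p 0.0339). That count was 22 without SIRT5F101L replicate 1 and 0 to 2 without any 1 of the other 11 libraries.

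**Figure D5:**
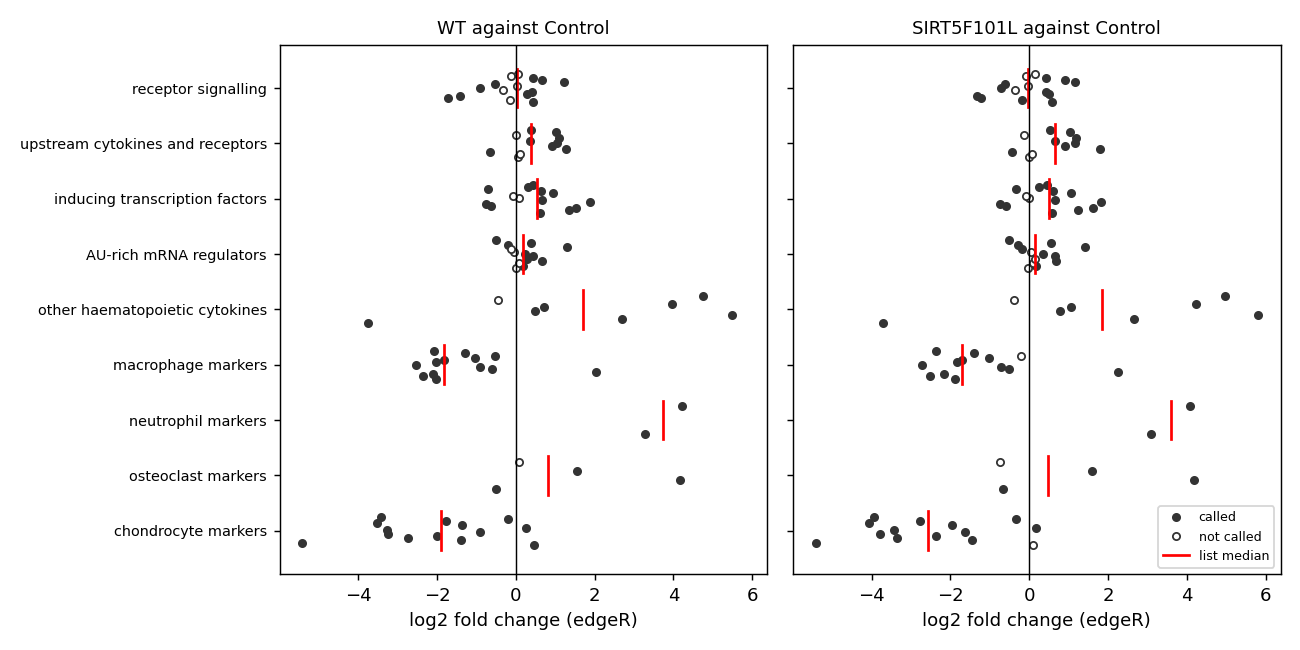
Log2 fold changes of list genes against Control in WT (left) and SIRT5F101L (right); filled points were called by edgeR, open points were not, and red lines are list medians. The list of other haematopoietic cytokines has medians of 1.71 and 1.86, macrophage markers of -1.83 and -1.71. The first include Tnfsf11, which passed the filter only through the plasmid groups. The second include Ptprc and Cx3cr1, which passed only through Control.

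Genes whose profile over the 12 libraries was most like that of each tested ligand were ranked by the root mean square difference of centred log2 CPM among 9748 genes that have a symbol and average 5 CPM or more. For Il34 the nearest were Adgrd1 (0.122), Igf1 (0.122), Lifr (0.130), Mmp2 (0.130) and Casc4 (0.131), with Pearson correlations of 0.971 to 0.981. Igf1 is a growth factor, Lifr the receptor of LIF and Mmp2 a gelatinase. Igf1 averaged 156 CPM in Control, 67.1 in WT and 78.8 in SIRT5F101L, the same order as Il34, and its change was -1.22 and -0.99. Such agreement, and the correlations, follow from picking genes by likeness in these same libraries. Lifr changed by -1.13 and -0.83, while its ligand gene Lif rose. For Csf1 the nearest were Pik3r4 (0.0441), Pcsk7 (0.0444), Midn (0.0482), Rrbp1 (0.0531) and Wdr73 (0.0565), with correlations of 0.861 to 0.922. The profile of Csf1 itself varied by only 0.1097 on that scale, so likeness to it rests on small differences between libraries. All points share library and group, and correlations carry no p.

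Neighbouring protein-coding genes, taken as the nearest 2 on each side in a RefSeq table of another build, did not follow one pattern. Beside Il34, Mtss2 (-1.81 in both plasmid groups) and Cog4 (-0.32 in both) fell, whereas Vac14 (0.13 and 0.07) and Sf3b3 (0.04 and 0.10) were not called. Beside Csf1, Gstm5 (-0.75 and -0.99) and Ahcyl1 (-0.21 and -0.20) fell, and Eps8l3 had 10 counts in all libraries. Beside Csf3, Thra fell (-1.32 and -1.28), Psmd3 (0.04 and -0.04) and Med24 (0.14 and 0.08) were not called, and Gsdma had 13 counts. Beside Csf2, Pdlim4 (-2.41 and -2.71) and P4ha2 (-0.19 and -0.21) fell, Il3 was listed at 0, and Acsl6 had 62 counts in all libraries.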

How the data were processed

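RNA was measured in 12 libraries of primary chondrocytes, captured by oligo-dT beads and read as paired ends, per the labels' protocols. The authors deposited raw counts per Ensembl gene ID. The submitters' processing notes name FastQC 0.11.9, HISAT2 2.2.1, HTSeq 2.0.2, DESeq2 1.38.3 and the build GRCm39, with no roles; the annotation and the strand setting are not given in the sources used here, so reads of overlapping genes cannot be assigned. Symbols were found for 52029 of 57010 IDs. Lengths, exon overlaps and 3′ sequences came from GENCODE M21 and promoters from RefSeq, both on GRCm38, so no gene coordinates are given on the files' build.

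With edgeR 4.0.16 (R 4.3.3), counts were scaled by TMM, filtered by filterByExpr and fitted by quasi-likelihood, 1 mean per group over the 12 libraries, leaving 9 residual degrees of freedom. The SE is the log2 fold change divided by the square root of F. Changes in the text are log2 values from this fit, with p-values adjusted over 14253 genes. The fit was tested on simulated data. Counts of pairs of libraries in a group differed by 2.55 to 8.92 times sampling noise. Alternatives were RLE and upper-quartile scaling, 2 other filters, DESeq2 1.42.0, a robust prior, the 8 libraries compared, a transcript-length trend, and each library left out.

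The members and lists were chosen with earlier results of these data known, and the permutation test of Csf3 was added after its counts were seen. The text names the 4 ligands, every tested receptor gene, up to 3 called genes per direction with the largest changes in each other list and genes listed at 0, the 5 genes most like each tested ligand, and the nearest 2 genes on each side. A few genes that this rule names are not reported here. Other genes named (Tnf, Il1a, Il1b, Calcr, Dcstamp, Zfp36l1, Nfkb1, Nfkb2, Rela, Relb, Ptprc, Snorc, the low receptor genes and Adam17 in WT) were named after their values were seen. Replicate numbers follow the order of the samples and pair nothing.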

Additional observations from a re-analysis of the deposited data

Results flagged for a closer look

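The 4 ligand and 7 receptor genes were screened in each group for a library far from the other 3, by the gap to the nearest library as a share of the range. Of 27 measures screened, 1 was found, where chance gives 1.35. Csf3r stood at 0.200 CPM in SIRT5F101L replicate 3, from 5 counts, and at 0 in the other 3 libraries of that group. Not every gene entered the 27 measures in every group. Csf2 and Csf3 in Control and Csf3r in WT, each with 1 or 2 counts from a single library, were not counted.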

How the results depend on the processing

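Against Control, the fall of Il34 kept its direction and its call under all 20 alternatives, with leave-one-out ranges of -1.30 to -1.18 in WT and -1.04 to -0.941 in SIRT5F101L. Csf1 in WT, at 0.16 and not called, was called with no filter (0.16), with DESeq2 (0.16), with a robust prior (0.16) and with only the 8 libraries compared (0.17). With 1 library left out it ranged from 0.0997 to 0.209 and was called without Control replicate 4, WT replicate 4 or SIRT5F101L replicate 1. Csf1 in SIRT5F101L against Control changed sign with the length trend (-0.0283), and ranged from -0.0108 to 0.0892 with 1 library left out. Csf2ra between the plasmids, at -0.03, changed sign with the length trend (0.00606) and without WT replicate 1 (0.0324) or 4 (0.0183) or SIRT5F101L replicate 1 (0.00200) or 3 (0.0508), and was as low as -0.0909. Genes called between the plasmids numbered 6, against 354 with no filter, 44 with DESeq2, 2 with a robust prior, 2 with only 8 libraries, 20 with the length trend, and 0 to 2212 with 1 library left out. Of list genes 1 was called there, against 8 with no filter, 5 with DESeq2, 5 with the length trend, and 0 to 22 with 1 library left out. The ratio of Csf1 to Il34 with mean transcript length was 34.3 in Control, 90.3 in WT and 70.6 in SIRT5F101L. The cause of these shifts was not tested. Depth limits Csf3 and Csf2, which have few counts. No paired analysis was possible because the labels give no replicate numbers.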
